A study of Mus musculus with 6 samples.

Results

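Oxidative phosphorylation is the route by which mitochondria turn the electrons of NADH and succinate into ATP. Complex I and complex II feed electrons into the chain, complex III and complex IV carry them to oxygen, and complex V, the ATP synthase, uses the proton gradient that results. Most subunits are encoded in the nucleus and imported, while a core few are encoded in the mitochondrial genome, so that the assembled complexes draw on transcripts of both genomes. In microglia, the resident macrophages of the brain, the balance between this route and glycolysis is known to shift with the state of activation.

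The 45 genes described here are nuclear-encoded subunits of the 5 complexes, chosen by gene symbol and found in full among the 24984 genes of the deposited count table. They comprise 19 subunits of complex I, 4 of complex II, 6 of complex III, 9 of complex IV and 7 of complex V. The symbols are the older mouse names (Atp5b is now Atp5f1b), and Ndufa4 is kept in complex I as its name has it, although it is now counted as a subunit of complex IV.

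The microglia came from male C57BL/6J mice, aged 10 weeks, that had received 2 µl of 1% lysolecithin (LPC), a detergent-like lipid that strips myelin, in the corpus callosum, a white matter tract. Cells were taken 3 days after the injection in the group called day 3 and 10 days after it in the group called day 10, with 3 libraries per group and 1 mouse per library. All 6 mice were injected, so each comparison sets 1 time after injury against another and none sets injury against health. Cells were sorted as CD11b+ Ly6G- CD3- CD45lo, a gate that also passes other macrophages of low CD45, and their polyadenylated RNA was amplified before sequencing.

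Library totals ran from 5890081 to 9212197 counts assigned to genes, and all 8 microglial marker genes looked at had counts in every library. Day 10 replicate 3 stood apart: its correlations of log2 CPM with the other libraries were 0.549 to 0.619, against 0.616 to 0.732 among the other 5, and 10416 genes were detected there, compared with 12691 to 16013 elsewhere. Transcripts of the mitochondrial genome, rRNA included, took 30.7%, 33.8% and 35.8% of counts in day 3 replicates 1, 2 and 3 and 11.1%, 39.0% and 17.6% in day 10 replicates 1, 2 and 3. Fold changes that the account turns on are given with and without day 10 replicate 3. Levels are CPM (counts scaled to the library total, with TMM factors between libraries), values are listed in the order of replicates 1, 2 and 3, and log2 fold changes are day 10 minus day 3 with their SE.

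Promoters are shown first for 3 subunit genes whose levels did not overlap between the days. Factors of the ETS family (which includes GABP) and YY1 are known to bind promoters of many nuclear mitochondrial genes, and the RefSeq promoter table (GRCm38.p6) held a window from 250 bases before to 50 bases after the start of 34 of the 45 genes. Sdhd is shown because its window held the ETS letters, and Ndufv2 and Atp5b because theirs held none of the letters reported here. Each sequence ends at the last base before the RefSeq start or before the GENCODE gene, whichever lies farther upstream, and reads 5′ to 3′ on the gene's strand. Capitals mark the ETS letters (CTTCCGG, the reverse complement of CCGGAAG).
Sdhd, minus strand, chr9:50603850-50603999: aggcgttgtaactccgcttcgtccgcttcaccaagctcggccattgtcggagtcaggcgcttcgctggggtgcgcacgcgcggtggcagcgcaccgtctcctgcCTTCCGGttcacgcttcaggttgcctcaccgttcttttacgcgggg
Ndufv2, minus strand, chr17:66101560-66101709: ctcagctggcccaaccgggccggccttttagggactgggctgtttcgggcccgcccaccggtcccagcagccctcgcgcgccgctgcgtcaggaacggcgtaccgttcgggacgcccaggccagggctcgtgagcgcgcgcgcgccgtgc
Atp5b, plus strand, chr10:128083157-128083272: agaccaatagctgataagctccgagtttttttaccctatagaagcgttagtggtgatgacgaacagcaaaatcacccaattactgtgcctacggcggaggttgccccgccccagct

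In Sdhd the ETS letters lay 46 to 40 bases before the RefSeq start. Searched on both strands, CCGGAAG was found in 9 of the 34 members (26.5%) and in 9.93% of 27025 genes. The YY1 letters AAGATGGC were found in 3 members (8.82%) and 3.19% of genes, and at least 1 of the 2 in 12 members (35.3%) and 12.6% of genes. The ETS letters were shortened after a first search with CCGGAAGT, which 3 members (8.82%) and 4.31% of genes held. The letters of 1 further factor were also searched and are not reported here. The matches describe letters in a window and were not tested as binding sites.

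Across the subunits, no gene passed the test between day 10 and day 3. edgeR's quasi-likelihood test ran on 44 of the 45 (Cox5a was too low), with Benjamini-Hochberg adjustment over 10535 genes and a threshold of 0.05. It called 0 members in either direction, beside 12 of all genes higher at day 10 (0.114%) and 0 lower (0%). The lowest adjusted p of a member was 0.111, for Cox6c. At an unadjusted p under 0.05 there were 2 members, Cox6c and Ndufv2, both higher, beside 4.76% of all genes higher and 1.38% lower. DESeq2 called Cox6c alone among the members, beside 0.427% of all genes higher and 0.171% lower. The biological coefficient of variation, the spread between libraries of the same day that edgeR fitted over all genes, was 1.11. With 1 mouse per library, differences between mice and between preparations cannot be told apart in it. The SE of a member's log2 fold change ran from that of Atp5b (0.79) to that of Ndufb8 (2.17). The number of all genes called higher itself moved with single libraries, being 36, 41 and 26 without day 3 replicates 1, 2 and 3 and 208, 169 and 1 without day 10 replicates 1, 2 and 3.

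The members' fold changes lay on both sides of 0. Of the 44, 18 were positive and 26 negative, with a median of -0.38, while the median of all genes tested was -0.002 and 50.1% of them were negative. Without day 10 replicate 3, all 45 were tested, 21 were positive and 24 negative, and the median was -0.21, beside -0.09 for all genes. None was then under an unadjusted p of 0.05, beside 3.42% of all genes higher and 2.42% lower. None was called either, with a lowest adjusted p of 0.889, beside 0.00821% of genes higher and 0% lower. By complex, the median over all 6 libraries was -0.10 for complex I, 0.08 for complex II, -1.29 for complex III, -0.53 for complex IV and -0.44 for complex V. Without day 10 replicate 3 the medians were -0.15, 0.21, -0.76, 0.04 and -0.21 in the same order, so the sign for complex IV turned. The members' median over the alternatives ran from -0.91 (limma-trend on log2 of FPKM + 0.1) to 0.07 (limma-voom with sample quality weights), with -0.87 for limma-voom and -0.75 for the replicate block. Without day 10 replicate 1 it was -0.78, beside -0.27 for all genes, and the complex I median was -1.22. The authors' deposited comparison has the opposite sign, day 3 minus day 10. There 29 of the 45 members were above 0, that is, lower at day 10. Their median in it was 0.984 over all members, beside -0.387 for all its genes. Those genes were not filtered, and 5349 of the 24984 in the count table were at 0 in all libraries. The -0.387 is thus not on a par with the medians of tested genes above.

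**Figure D1:**
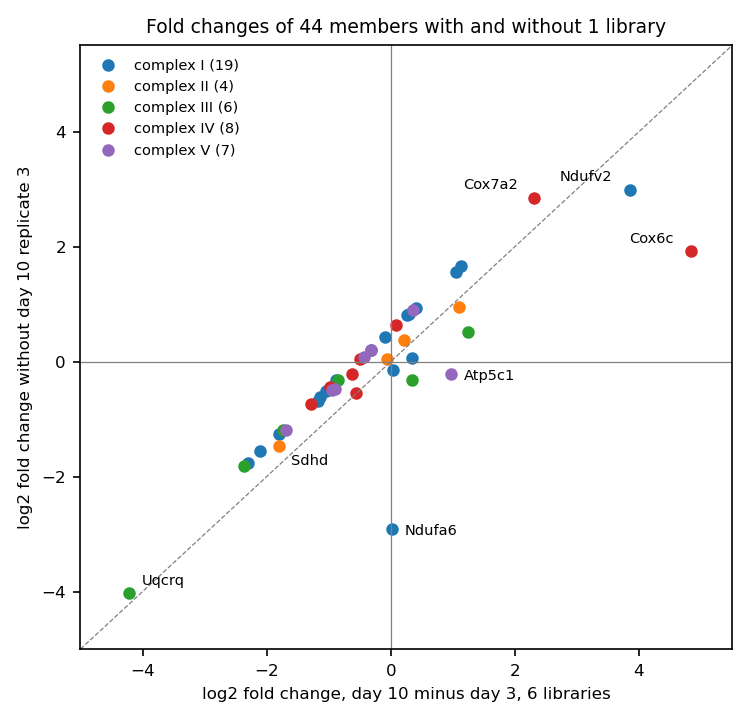
Each point is 1 of 44 subunit genes, with the log2 fold change (day 10 minus day 3, edgeR) over 6 libraries on the x axis and without day 10 replicate 3 on the y axis, colored by complex; the dashed line marks equal values. Most points lie close to or just above the line, while Cox6c (4.84 and 1.92), Ndufa6 (0.03 and -2.91) and Atp5c1 (0.97 and -0.21) lie below it.

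The subunit transcripts were thinly covered in day 10 replicate 3. Of the 45, 44 had a count in each day 3 library and 45 in day 10 replicates 1 and 2, but 34 in day 10 replicate 3. The 11 members at 0 there were 8 of complex I (Ndufa2, Ndufa4, Ndufa8, Ndufb3, Ndufb7, Ndufb8, Ndufs7 and Ndufv1), 2 of complex III (Uqcrc1 and Uqcr10) and Cox5b of complex IV. A further 17 had 1 to 3 counts, so that 28 members (62.2%) had 3 counts or fewer, against 37.0% of all genes tested. A count of 0 in that library allows a level of up to 0.799 CPM (3 counts, counting error only). In the other libraries 1, 9 and 1 members at day 3 and 0 and 0 at day 10 had 3 counts or fewer. The other members at 0 were Cox5a in day 3 replicate 1, Ndufb8 in day 3 replicate 2 and Ndufb7 in day 3 replicate 3. Thinning the deeper libraries in expectation to 5890081 counts left 43.6 to 45 members with a count in each of them.

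**Figure D2:**
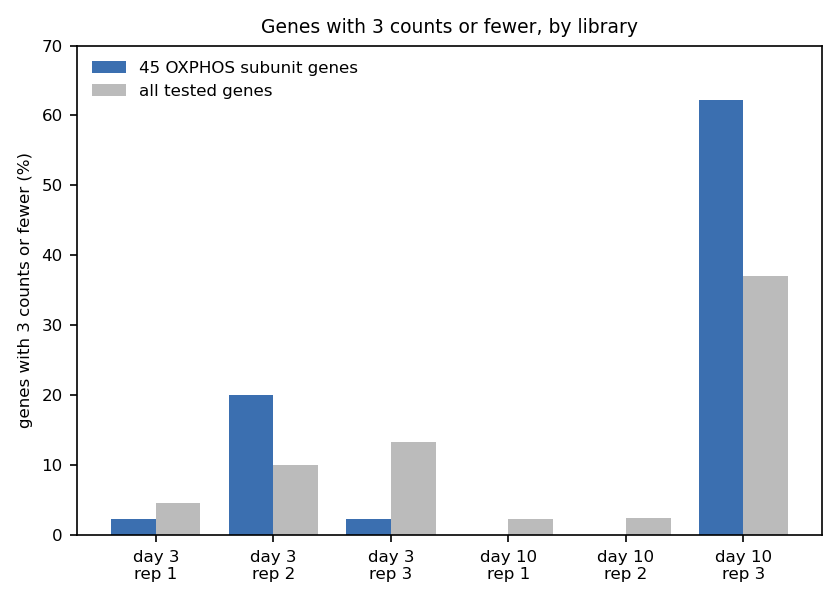
Bars give the percentage of the 45 subunit genes (blue) and of all 10535 genes tested (grey) with 3 counts or fewer in each library. Day 10 replicate 3 has 62.2% of the subunit genes and 37.0% of all genes, and day 3 replicate 2 comes next for the subunit genes, with 20.0% beside 10.0% of all genes.

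The median level of a member was 10.1, 8.40 and 13.9 CPM at day 3, against 11.1, 10.3 and 0.538 CPM at day 10. The median of all genes tested was 17.4, 16.5 and 16.0 CPM at day 3, then 17.3, 15.8 and 4.57 CPM at day 10. Both medians were thus lowest in day 10 replicate 3. Of the members, 25 had their lowest level in that library and 6 their highest, while 41.4% of all genes had their lowest and 25.6% their highest there. The members that kept more than 3 counts there averaged 4.88 to 418 CPM in the other 5 libraries (median 25.8), and the 28 that did not averaged 1.41 to 33.0 CPM (median 10.0). By level, among genes averaging 1 to 5 CPM elsewhere, 6 of 7 members and 73.8% of 1620 genes had 3 counts or fewer there, and at 5 to 10 CPM 8 of 12 members and 65.5% of 1763 genes. At 10 to 20 CPM it was 8 of 10 members and 51.8% of 1918 genes. Among those at 20 to 50 CPM it was 6 of 12 members and 21.0% of 2466 genes, and from 50 CPM none of 4 members and 1.30% of 2685 genes. In bulk RNA fewer cells of a type and less RNA per cell cannot be told apart.

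**Figure D3:**
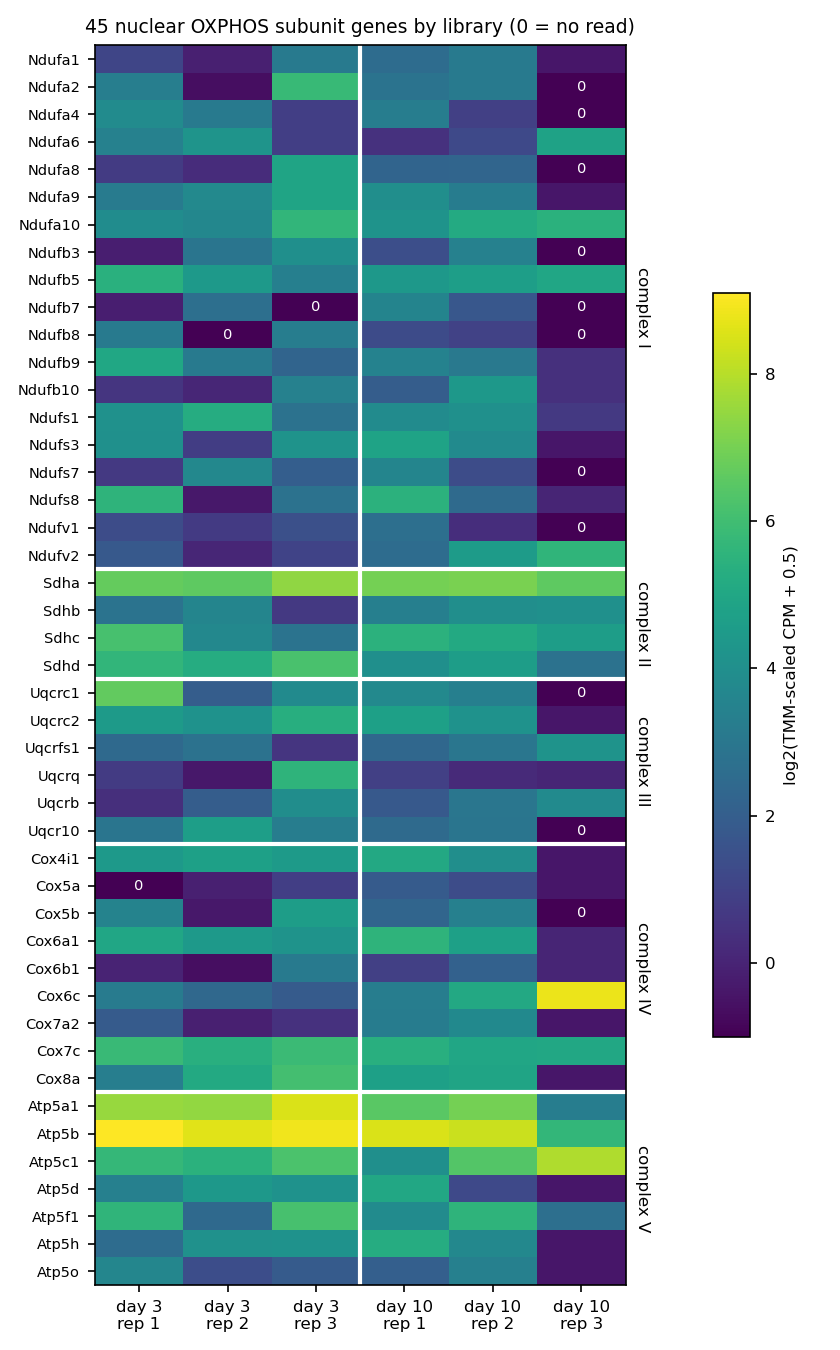
Rows are the 45 subunit genes grouped by complex and columns the 6 libraries; color gives log2(CPM + 0.5), and a written 0 marks a gene without a count. Day 10 replicate 3 holds 11 of the 14 zeros, and Atp5b, Atp5a1 and Sdha are bright in the other 5 columns.

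Per length of transcript, Atp5b was the highest gene of the set. The authors' FPKM columns are named by day and not by library, so their values are given by group. This gene, which encodes the catalytic β subunit of complex V, had a mean of 91.0 FPKM, with a lowest, median and highest value of 94.6, 99.5 and 144 FPKM at day 3 and 7.61, 76.0 and 125 FPKM at day 10. It was followed by Cox8a (52.7), Atp5a1 (51.7), Cox6a1 (39.5), Cox7c (39.4), Atp5c1 (37.1) and Sdha (31.7). At the other end were Cox5a (0.680), Ndufb7 (0.932) and Ndufv1 (0.984). The ranges of neighbors in this order overlapped widely: Cox8a ran from 0.312 to 109 FPKM and Atp5a1 from 1.84 to 104 FPKM over the 6 columns.

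In complex I, the NADH dehydrogenase, 1 of 19 genes had no overlap between days. This was Ndufv2 (chromosome 17, 66078638 to 66101559, minus strand), an iron-sulfur subunit of the arm that takes electrons from NADH. It had 3.05, 0.569 and 1.57 CPM at day 3, against 5.44, 22.6 and 48.1 CPM at day 10. Every day 10 library was above every day 3 library, and the lowest day 3 value rests on 4 counts. The log2 fold change was 3.86 ± 1.80, with an edgeR adjusted p of 0.743 (0.0386 unadjusted), and 2.99 without day 10 replicate 3. In the authors' deposited table Ndufv2 had a log2 value of -3.471 (day 3 minus day 10) and an unadjusted p of 0.0132.

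Ndufv1, which holds the NADH site and forms a pair with Ndufv2, did not share this pattern, with 2.06, 1.14 and 2.29 CPM at day 3, then 5.97, 0.753 and 0 CPM at day 10. Its day 10 values lay both above and below those of day 3. Ndufs1, the largest iron-sulfur subunit, had 16.7, 37.0 and 6.39 CPM at day 3, against 13.9, 16.1 and 1.08 CPM at day 10. Ndufs7, an iron-sulfur subunit next to the ubiquinone site, had 1.08, 12.5 and 3.50 CPM and then 11.5, 2.05 and 0 CPM. Ndufs8, the other iron-sulfur subunit of that arm, had 47.0, 0.285 and 6.39 CPM at day 3, then 44.5, 5.06 and 0.538 CPM at day 10. For all 3 the days overlapped, and the log2 fold changes were -0.94 ± 1.58, -0.32 ± 1.98 and -0.10 ± 1.64. Without day 10 replicate 3 they were -0.45, 0.20 and 0.44, so that the signs of Ndufs7 and Ndufs8 turned.

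Among the accessory subunits of complex I, which surround the catalytic core, the smallest p of a lower gene was that of Ndufa2 (-2.10 ± 1.83) and next Ndufb8 (-2.29 ± 2.17). Exons of Ndufb8 overlap Gm20538 on the same strand, and those of Ndufb9 overlap Gm49356, so reads could be split between the genes of each pair. Ndufa2 had 9.53, 0.142 and 54.8 CPM at day 3, against 6.59, 8.29 and 0 CPM at day 10, and its sign rested on day 3 replicate 3 (0.05 without it). Ndufb10 had 0.982, 0.569 and 10.4 CPM at day 3, then 3.45, 20.5 and 0.807 CPM at day 10, and its fold change of 1.05 was -0.90 without day 10 replicate 2. Ndufa6 was the reverse of most members: it was at 27.7 CPM in day 10 replicate 3 and at 0.837 and 1.83 CPM in day 10 replicates 1 and 2, against 10.4, 17.9 and 1.33 CPM at day 3. Ndufa10 and Ndufb5 were the steadiest of this complex, with a highest level 3.98-fold and 4.35-fold above the lowest over the 6 libraries. The remaining genes of complex I overlapped between days.

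Complex II, succinate dehydrogenase, is the only one of the 5 whose subunits are all nuclear. Its 4 genes kept counts in every library, 24 counts or more in day 10 replicate 3. Sdha (chromosome 13, 74322254 to 74350280, minus strand), the flavoprotein that oxidizes succinate, was the steadiest of all 45 genes. It had 104, 94.2 and 168 CPM at day 3, against 125, 131 and 96.8 CPM at day 10, so that the highest library was 1.78-fold above the lowest. The days overlapped, and the log2 fold change was -0.05 ± 0.87, whose sign turned with the scaling (0.12 with RLE scaling).

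Sdhd (chromosome 9, 50596357 to 50603812, minus strand), 1 of the 2 membrane anchors of complex II and the gene whose promoter above holds the ETS letters, had 49.7, 37.9 and 72.7 CPM at day 3. It had 15.6, 23.8 and 6.45 CPM at day 10. All 3 day 10 libraries were below all day 3 libraries, also without day 10 replicate 3. The log2 fold change was -1.80 ± 1.24 (edgeR adjusted p 0.999), and -1.46 without that library. In the authors' deposited table the value was 1.884 (day 3 minus day 10) with an unadjusted p of 0.0420. Sdhd and Ndufv2 were the 2 members under 0.05 there, beside 2.55% of genes higher and 1.54% lower at day 10. These shares are of 24984 unfiltered genes, of which 5349 were at 0 in all libraries.

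Its partner anchor Sdhc had 70.6, 12.5 and 6.63 CPM at day 3, then 44.8, 34.8 and 24.2 CPM at day 10, with the day 10 values inside the day 3 range. Sdhb, the iron-sulfur subunit that hands electrons to the anchors, had 6.68, 11.4 and 1.09 CPM at day 3, against 9.84, 15.3 and 16.1 CPM at day 10. The 2 groups overlapped for both, with log2 fold changes of 0.21 ± 1.25 and 1.11 ± 1.72 (0.38 and 0.94 without day 10 replicate 3). The 4 genes of this complex thus differed among themselves in direction.

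Complex III, the cytochrome bc1 complex, had the lowest median fold change of the 5 (-1.29). Without day 3 replicate 1 it was -0.60, above that of complex V (-0.72), and without day 3 replicate 3 it was -0.43. Uqcrq (chromosome 11, 53427922 to 53430831, minus strand), a small subunit of the membrane part, had 1.18, 0.285 and 47.0 CPM at day 3, then 1.36, 0.646 and 0.538 CPM at day 10. Day 3 replicate 3, with 390 counts, was far above the other 5 libraries, which had 2 to 13 counts. The log2 fold change was -4.21 ± 2.11 (edgeR adjusted p 0.824), and -4.02 without day 10 replicate 3. Uqcrc1, a core protein facing the matrix, had 101, 3.42 and 13.9 CPM at day 3, against 13.1, 9.69 and 0 CPM at day 10, where day 3 replicate 1 was the high library (-2.37 ± 1.56, and -1.81 without day 10 replicate 3). Uqcrfs1, the Rieske iron-sulfur protein, had 5.01, 6.40 and 0.965 CPM at day 3, then 4.71, 7.32 and 17.5 CPM at day 10, overlapping between days (1.25 ± 1.84, and 0.51 without day 10 replicate 3).

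2 small subunits of complex III share sequence with other genes. Uqcr10 had 7.07, 24.6 and 9.29 CPM at day 3, against 5.13, 7.10 and 0 CPM at day 10, but 4930481A15Rik, which matches its transcript at 95% identity or more over at least 100 bases, took 51.5% of the counts of both together. 4930481A15Rik is annotated as an antisense gene and matches over 191 bases, so its counts may also be its own. In day 10 replicate 3 it had 282 counts while Uqcr10 had 0, so the value for Uqcr10 there is uncertain. Uqcrb had 0.786, 3.42 and 14.7 CPM at day 3, then 3.04, 7.21 and 13.7 CPM at day 10, and 39.4% of the joint counts lay in copies. In day 3 replicate 2 its copy Gm16089 had 170 counts and Uqcrb itself 24. Over the whole set, 34 members had no such copy and 11 had one, and the third with over 10% of joint counts in copies was Cox7c (17.3%).

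In complex IV, cytochrome c oxidase, Cox6c was the gene of smallest p in the whole set. Cox6c (chromosome 15, 35925886 to 35938246, minus strand), a small membrane subunit, had 8.55, 4.84 and 3.26 CPM at day 3, against 9.32, 33.3 and 437 CPM at day 10. All day 10 libraries were above all day 3 libraries, but day 10 replicate 1 exceeded the highest of day 3 by little, and replicate 3 was 13.1-fold above the next highest library. The log2 fold change was 4.84 ± 1.26 with an edgeR adjusted p of 0.111, and without day 10 replicate 3 it was 1.92 with an adjusted p near 1. DESeq2 gave an adjusted p of 0.0086. edgeR without a filter on low counts gave 0.0183, where 0.576% of genes were called higher and 0.0255% lower. Without day 10 replicate 1 the adjusted p was 0.00156 (1.82% of genes higher and 0.0263% lower), and without day 10 replicate 2 it was 0.00384 (1.5% higher and 0.0355% lower). Over all alternatives the adjusted p ran up to 1. The authors' deposited table gave -3.041 (day 3 minus day 10) and an unadjusted p of 0.0557. Exons of Cox6c overlap Vps13b on the opposite strand, and counts of the 2 cannot be told apart without strand. Vps13b had 199.7, 174 and 134 CPM at day 3, then 125, 241 and 231 CPM at day 10, which is less than 2-fold apart from the highest to the lowest and not highest in day 10 replicate 3. A ratio of at least 8-fold above every other library in day 10 replicate 3 was found in 1 member, Cox6c, and in 3.39% of all genes tested.

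The other genes of complex IV did not follow Cox6c. Cox4i1, the widely expressed form of subunit 4, had 20.6, 26.3 and 22.2 CPM at day 3, against 33.1, 15.5 and 0.269 CPM at day 10, and Cox8a, another small membrane subunit, had 9.33, 34.7 and 66.0 CPM and then 25.9, 29.3 and 0.269 CPM. Both had 1 count in day 10 replicate 3, and both overlapped between days in the other libraries. Cox5b, which binds zinc, had 11.0, 0.285 and 24.1 CPM at day 3, then 4.40, 10.0 and 0 CPM at day 10. Cox7a2 had 3.24, 0.427 and 0.844 CPM at day 3, against 8.90, 13.5 and 0.269 CPM at day 10, without overlap only where day 10 replicate 3 is left out (2.31 ± 2.06 with it and 2.85 without). Cox5a, not tested for its low counts, had 0, 0.427 and 1.33 CPM at day 3, then 3.24, 2.05 and 0.269 CPM at day 10. Cox7c was steady, with 55.9, 40.3 and 58.5 CPM at day 3, against 41.2, 31.0 and 32.3 CPM at day 10, a 1.89-fold range over the 6 libraries. The summed level of complex IV was 140, 128 and 202 CPM at day 3, then 174, 165 and 472 CPM at day 10, but without Cox6c it was 132, 123 and 199 CPM and then 165, 132 and 34.4 CPM.

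In complex V the 2 largest subunits of the catalytic head had no overlap between days, and the rotor shaft differed from them. Atp5a1, the α subunit, had 185, 174 and 363 CPM at day 3, against 90.1, 125 and 9.14 CPM at day 10. The log2 fold change was -1.69 ± 0.92 (edgeR adjusted p 0.881), and -1.19 without day 10 replicate 3. Atp5b (chromosome 10, 128083273 to 128090391, plus strand), the β subunit, had 544, 399.5 and 468 CPM at day 3, then 367, 313 and 51.1 CPM at day 10, with -0.95 ± 0.79 (adjusted p 0.999) and -0.50 without that library. For both genes every day 10 library was below every day 3 library, with or without replicate 3, and that library was the lowest of all 6. With library-size scaling the days overlapped for Atp5b and not for Atp5a1. Exons of Atp5a1 overlap Haus1 on the opposite strand.

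Atp5c1, the γ subunit that turns inside the head, had 51.9, 43.0 and 74.9 CPM at day 3, against 15.8, 83.2 and 234 CPM at day 10. Its day 10 values lay on both sides of those of day 3, and its fold change of 0.97 ± 1.01 became -0.21 without day 10 replicate 3. The counts of Atp5c1 per count of Atp5b, a ratio that no scaling between libraries changes, were 0.0954, 0.108 and 0.160 at day 3 and 0.0430, 0.266 and 4.58 at day 10. The ratio in day 10 replicate 3 was thus far above the other 5, and the counts of Atp5a1 per count of Atp5b in that library (0.179) were the lowest, against 0.245 to 0.775 elsewhere. Copies of Atp5c1 held 2.58% of joint counts. Atp5h, in the stalk that holds the head still, had 5.40, 16.5 and 17.1 CPM at day 3, then 37.3, 12.5 and 0.269 CPM at day 10, with overlap and a sign that turned under several alternatives.

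**Figure D4:**
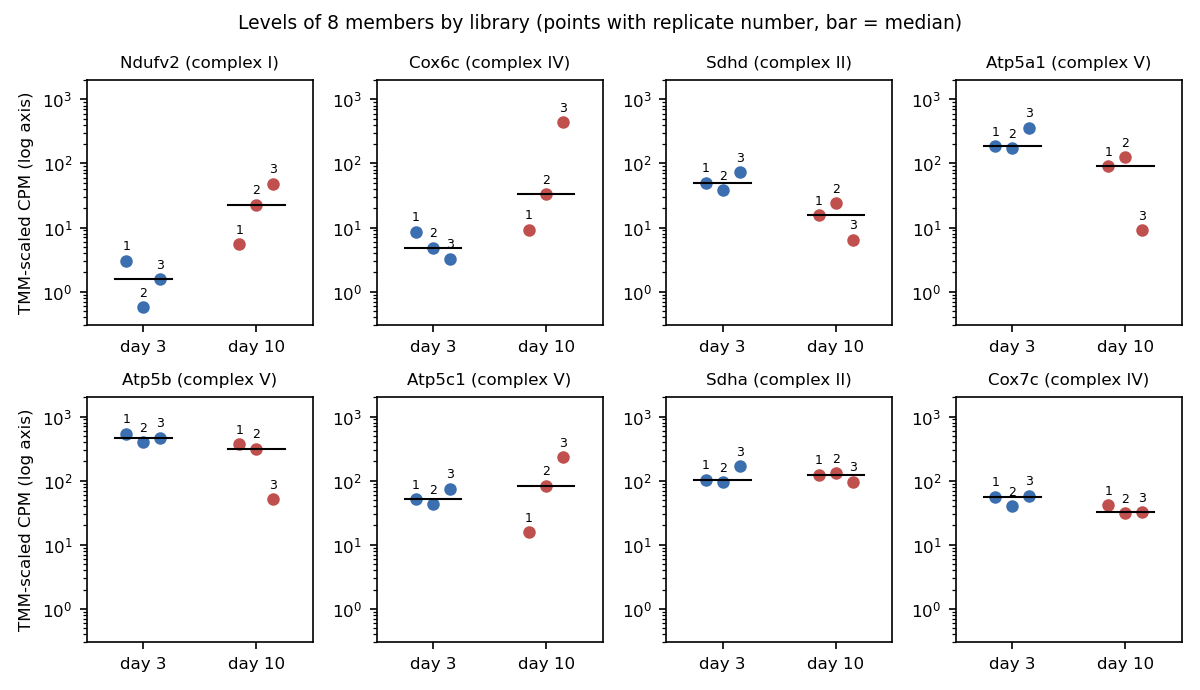
Points give TMM-scaled CPM (log axis) of 8 subunit genes in each library, numbered by replicate, and bars the group median. Ndufv2 and Cox6c are higher and Sdhd, Atp5a1 and Atp5b lower in all 3 day 10 libraries, with day 10 replicate 3 the extreme point of each, while Sdha and Cox7c stay within a 1.78-fold and a 1.89-fold range.

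Counted over all 6 libraries, genes without overlap were about as frequent among the subunits as among all genes. The 2 members higher without overlap, of 45, compare with 3.47% of all genes tested, and the 3 lower with 4.97%. Without day 10 replicate 3, 4 members were higher (Ndufv2, Cox5a, Cox6c and Cox7a2; background 10.8%) and 3 lower (the same 3; background 8.51%). Without day 3 replicate 3 there were 4 higher (background 6.23%), and without day 10 replicate 1 there were 5 higher (background 7.83%) and 7 lower (background 11.6%). Without day 3 replicate 1 there were 5 lower (background 9.63%), and without day 3 replicate 2 there were 9 lower of 45 (background 10.5%), a share above that of all genes for which no test was made.

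The make-up of the subunit transcripts differed in day 10 replicate 3. The summed level of the 45 genes was 1594, 1148 and 1850 CPM at day 3, against 1202, 1207 and 1102 CPM at day 10, and the order of the libraries depended on the scaling: day 10 replicate 3 was at 1637 CPM with RLE scaling, 794 CPM with upper-quartile scaling and 702 CPM with library-size scaling. Without Cox6c that library summed to 665 CPM and the other 5 to 1143 to 1847 CPM. Atp5b took 34.1%, 34.8% and 25.3% of that sum at day 3 and 30.6%, 25.9% and 4.64% at day 10. Cox6c took 0.536%, 0.421% and 0.176% at day 3 and 0.775%, 2.76% and 39.7% at day 10. Atp5b, Atp5a1 and Sdha were the leading 3 in the other 5 libraries, with 47.1% to 58.1% of the sum, whereas Cox6c, Atp5c1 and Sdha led in day 10 replicate 3 with 69.7%. Sdha kept 6.54% to 10.9% in all 6. These shares are of counts, not per length.

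**Figure D5:**
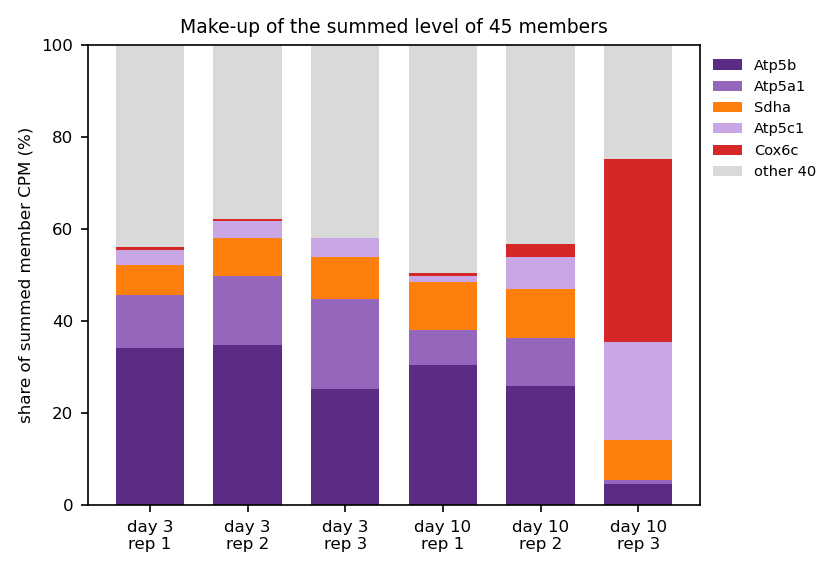
Stacked bars give the share of the summed CPM of the 45 subunit genes taken by Atp5b, Atp5a1, Sdha, Atp5c1, Cox6c and the other 40, by library. Atp5b takes 25.3% or more in the other 5 libraries and 4.64% in day 10 replicate 3, where Cox6c takes 39.7%, while the Sdha segment stays between 6.54% and 10.9%.

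Replicates of the same day differed widely. The range of a member within day 3, on the scale log2(CPM + 0.5), had a median of 2.44, beside 2.16 for all genes tested, and 15 members (33.3%) ranged over 10-fold, beside 26.9% of genes. At day 10 the median was 3.76, beside 3.15, and 27 members (60.0%) ranged over 10-fold, beside 46.1%. Between day 10 replicates 1 and 2 alone the median was 0.72, beside 1.03 for all genes, and 1 member (2.22%) ranged over 10-fold, Atp5d with 32.8 and 1.83 CPM. At day 3 the high libraries were not the same for all genes: Ndufa2, Ndufa8 and Uqcrq were highest in replicate 3, and Uqcrc1, Ndufb9 and Sdhc in replicate 1. Day 3 replicate 3 held the highest of the 6 values for 18 members and day 3 replicate 2 for 3.

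Other nuclear subunits of the 5 complexes, from a list of 40 further genes, gave a like picture. Of the 39 with a row of counts, 32 were tested, 0 were called, 11 were positive and 21 negative, and the median was -0.33 (-0.08 without day 10 replicate 3). Cyc1, the cytochrome c1 of complex III, had 20.4, 0.285 and 30.8 CPM at day 3, then 30.2, 14.6 and 154 CPM at day 10. Ndufc1, an accessory subunit of complex I, had 8.64, 1.28 and 45.4 CPM at day 3, against 4.19, 2.80 and 0.269 CPM at day 10. Neither separated the days. Cox4i2, Cox6b2 and Cox8b, forms known from lung, testis and muscle, were at 0 in all 6 libraries.

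Assembly factors, which build the complexes without staying in them, were also uncalled. Of the 40 with a row of counts, 29 were tested, 8 were positive and 21 negative, with a median of -0.56 (-0.08 without day 10 replicate 3). Cox16, an assembly factor of complex IV, had 0 counts in all day 3 libraries and 57, 41 and 50 counts in day 10 replicates 1, 2 and 3. Its mean of 7.94 CPM at day 10 was at least 22.2-fold higher than the level that 3 counts per library give at day 3, with an edgeR adjusted p of 0.303 (0.766 without day 10 replicate 3). Cox16 shares exons with Gm20498 on the same strand, between which reads could be split. Surf1, another factor of complex IV, had 2.16, 50.8 and 34.7 CPM at day 3, then 1.88, 3.34 and 0 CPM at day 10, overlapping between days (adjusted p 0.705).

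For the subunits encoded in the mitochondrial genome, 7 of 13 genes were tested and 0 called. All 7 were positive with a median of 0.10 over 6 libraries, and 4 of the 7 were negative without day 10 replicate 3 (median -0.14). Their summed level was 31574, 33903 and 44278 CPM at day 3, against 12057, 59000 and 48881 CPM at day 10. On this scale day 10 replicate 1 was the lowest library. The sum rests almost wholly on the 7 tested genes. The others, mt-Nd3, mt-Nd4l, mt-Co2, mt-Co3, mt-Atp6 and mt-Atp8, had at most 1.05 CPM in any library. Exons of mt-Atp6 overlap mt-Atp8 and mt-Co3, and those of mt-Nd4l overlap mt-Nd4, on the same strand. Near-identical copies were not sought for the mitochondrial genes, so these low counts do not show that the genes were not expressed. As a share of all counts, with rRNA, transcripts of the mitochondrial genome were lowest in day 10 replicate 1 (11.1%) and next in day 10 replicate 3 (17.6%), so the place of the latter depended on the scaling. Of 12 regulators of mitochondrial gene expression 10 were tested and 0 called (6 positive and 4 negative, median 0.06, and 0.49 without day 10 replicate 3). Ppargc1a, the coactivator PGC-1α, had 0.105 CPM in day 10 replicate 1 and was at 0 in the other 5.

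Markers of other cells also varied between libraries. Of 4 markers of oligodendrocyte progenitors Pdgfra, Olig1 and Olig2 were at 0 in all libraries, so their sum was that of Cspg4 alone. Cspg4 had 13.0, 0.996 and 1.45 CPM at day 3, then 104, 33.7 and 1.88 CPM at day 10, with overlap. Mrc1, a marker of border-associated macrophages, had 19.8, 93.2 and 75.9 CPM at day 3, then 5.55, 3.87 and 6.19 CPM at day 10 (edgeR adjusted p 0.480). The summed level of the 3 measured markers was 23.3 to 93.2 CPM for day 3 and 5.49 to 6.19 CPM for day 10. The other 2 were low: Cd163 reached 3.44 CPM in day 3 replicate 1, and Pf4 was at 0 at day 3 and at 0.419, 1.51 and 0 CPM at day 10. Mbp, a myelin gene of oligodendrocytes, had 0.884, 10.2 and 0.241 CPM at day 3, against 62.3, 41.4 and 13.2 CPM at day 10, without overlap (edgeR adjusted p 0.774). The 4 neutrophil markers reached 78.8 CPM in day 3 replicate 3 and at most 0.269 CPM elsewhere. The 8 microglial markers summed to 13617, 14875 and 13668 CPM at day 3, against 10940, 7644 and 30090.3 CPM at day 10, highest in the library in which 28 subunit genes had 3 counts or fewer. The part of these cells and of that library's RNA in the subunit values was not tested.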

How the data were processed

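Polyadenylated RNA of sorted microglia was sequenced in paired reads of 100 bases (6 libraries). The submitters' processing notes name STAR 2.5.2a with GRCm38, and R 3.3.2 with edgeR 3.16.5 and limma 3.30.8. The counting program, annotation release and strand were not given in the sources used here. Raw counts by Ensembl identifier come from the deposited count table. Symbols come from the authors' FPKM table, whose columns name the day only. Log2 fold changes and unadjusted p-values of the authors were read from their deposited comparison, in which the sign is day 3 minus day 10 (Spearman -0.856 across tested genes with the values computed here). The deposited table of normalized values was not used.

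Positions and exon overlaps come from GENCODE M21 (GRCm38). Genes were filtered with filterByExpr (minimum count 10), scaled with TMM and tested by edgeR 4.0.16 (R 4.3.3) with a quasi-likelihood F-test on group only, adjusted by Benjamini-Hochberg over 10535 genes. For each log2 fold change the SE was its size over the root of F. Near-identical copies were sought with BLAST 2.17.0 (95% identity over 100 bases). The scripts were tested on simulated data.

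The members and lists were chosen with earlier results of these data known. Named in each complex were called genes, genes without overlap, the 2 smallest p in each direction, the highest mean FPKM, genes with a count of 0 and fixed core subunits. From other lists only some of the 2 smallest p in each direction were named. Among those left out were Ndufb4, Atp5j, Uqcc1, Ndufaf3 (of smaller p than Surf1), Tfb1m, Yy1, Gabpb1 and Tfam. Some genes beyond this (Ndufa6, Ndufa10, Ndufb5, Ndufb9, Atp5d, Cox7c, Cox6a1, Ppargc1a) were named after their values were seen. As alternatives, scaling was changed (RLE, upper quartile, library size), as were filters and tools (DESeq2 1.42.0, and limma 3.58.1 as voom or as trend on log2 FPKM), a replicate block was added, and each library was left out. Same-numbered libraries did not deviate together (correlations of 0.073, -0.035 and 0.0073), so the numbers were not treated as pairs. Intervals from counts cover counting error only, since reads amplified by PCR were not tagged by molecule. The summed level of the oligodendrocyte markers is not reported here.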

Additional observations from a re-analysis of the deposited data

How the results depend on the processing

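The number of genes called higher at day 10 was 12, and it was 0 with RLE scaling, library-size scaling, limma-voom, the replicate block and limma-trend on FPKM in all 3 forms, 2 with voom and quality weights, 20 with a CPM filter, 45 with DESeq2 and 113 without a filter. Genes called lower numbered 0, and 1 with the CPM filter, limma-voom, voom with weights or robust edgeR, 5 without a filter and 18 with DESeq2. Leaving out 1 library gave 1 to 208 higher and 0 to 4 lower. Subunit genes called higher numbered 0, and 1 (Cox6c) without a filter and with DESeq2, and 0 to 1 with 1 library left out. Counts without overlap, an alternative added after seeing the data, ran from 2 to 5 higher and 3 to 9 lower with 1 library left out, and with library-size scaling Atp5b was no longer among them.

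Signs turned for several members. Sdha (-0.05) was 0.12 with RLE scaling and with DESeq2, 0.0019 with upper-quartile scaling, 0.059 with library size, 0.016 with voom and 0.15 with weights, and -0.23 to 0.27 with 1 library left out. Atp5h (0.36) was -0.57 with voom, -0.66 with the replicate block, -0.27, -0.95 and -0.27 with limma-trend on FPKM, and -1.02 to 0.89 with 1 library left out. Atp5c1 (0.97) was -0.0065 with voom and -0.054 with weights. With weights Cox5b was 0.23, Cox8a 0.028 and Ndufa2 0.25. With 1 library left out, Atp5c1 ran from -0.21 to 1.48, Ndufa2 from -2.71 to 0.053, Ndufb10 from -0.90 to 3.40, Sdhc from -0.24 to 1.85 and Uqcrb from -0.32 to 1.97. The cause was not tested. Voom with weights turned the sign of 14 of 44 members, limma-voom 9, library-size scaling 6 and RLE scaling 1. RLE scaling and DESeq2 moved the median of all genes to 0.13 and 0.12.

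With the replicate number as a block, 0 genes and 0 members were called and 7 members changed sign. Low counts limit the values in day 10 replicate 3, where 3 counts stand for 0.799 CPM with its TMM factor of 0.637.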
